A study of Homo sapiens with 5 samples.

Results

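Transcripts of the Eph receptors, the receptors for ephrins, were measured in liver cancer lines in which SALL4 was overexpressed or knocked down. SALL4 is a transcription factor with zinc fingers that is active in the embryo. The genes were EPHA2, EPHA3, EPHA4, EPHA5, EPHA7, EPHB1, EPHB2, EPHB3, EPHB4 and EPHB6, 10 of the 24544 gene symbols in the deposited tables, taken by exact symbol, and each had 1 row in all 5 tables. EPHA3 was chosen by its measured ratios, because its transcript was almost absent with both SALL4 isoforms and higher after SALL4 knockdown, so its ratios in those comparisons are descriptions of the choice. RNA-seq covered 5 libraries from established human hepatocellular carcinoma lines. In SNU-387 the vector was empty or encoded isoform SALL4A or isoform SALL4B, and SNU-398 cells were untreated or had SALL4 knocked down with both isoforms as targets. Each group held 1 library, so no value below has a replicate error and no test was possible.

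All cells were grown in RPMI with 10% serum, and the treatment label of each sample, the one called untreated included, names lentivirus and puromycin. The cell line label of both libraries titled SNU-398 reads SNU-387, and groups follow the titles. SALL4 followed the titles, with 0.117, 23.1 and 10.4 FPKM (fragments normalised to transcript length and to library size) in the empty vector, SALL4A and SALL4B libraries and 39.4 and 7.45 FPKM in the untreated and knockdown libraries. By estimate, depth was lowest after knockdown, at 7.15 M (mega) fragments, and highest with SALL4A, at 23.6 M. Small RNAs held 39.2% of summed FPKM in the knockdown library against 1.71% in the untreated one, and 8.45% to 14.4% in the SNU-387 libraries. Of 10 hepatocyte markers, 1 or 2 reached 1 FPKM in any library, and APOA2 was listed at 0 in all 5. Of 5 epithelial markers, the keratins KRT8 and KRT18, at 185 FPKM or more in every SNU-387 library, had 0.579 and 0.034 FPKM in untreated SNU-398. In the knockdown library these keratins had 4.78 and 3.53 FPKM. EPCAM went the other way, with 2.47, 1.81 and 7.16 FPKM in the empty vector, SALL4A and SALL4B libraries. Its SNU-398 levels were 33.7 FPKM untreated and 14.7 FPKM with knockdown. KRT19 and CDH1 stayed under 1 FPKM in all 5 libraries.

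Eph receptors form the largest family of receptor tyrosine kinases and bind ephrins on neighbouring cells. Class A receptors mainly bind ephrin-A ligands, which are held by a lipid anchor, and class B receptors mainly bind transmembrane ephrin-B ligands, with EPHA4 binding both. Contact sends signals into both cells through adaptors, Src family kinases and small GTPases, and often ends in repulsion or sorting of cells. In development the family guides axons and sets tissue boundaries, and in liver and other carcinomas several members are expressed again or lost.

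The promoters of the class A genes at the centre of the results are shown because EPHA3, EPHA7 and EPHA6 were all higher after knockdown, and because EPHA5 shares its start region with an antisense gene. The sequences are RefSeq windows (GRCh38.p14), 5′ to 3′ in the direction of each gene. Each is cut before the first base of its own gene that RefSeq or GENCODE 29 annotates as transcribed. The EPHA5 window lies within that antisense gene, EPHA5-AS1, which is annotated on the opposite strand. Capitals mark ATATT on either strand, a short AT-rich word searched because a zinc finger cluster of SALL4 is known to bind AT-rich DNA.
EPHA3, chr3:89107371-89107523, plus strand: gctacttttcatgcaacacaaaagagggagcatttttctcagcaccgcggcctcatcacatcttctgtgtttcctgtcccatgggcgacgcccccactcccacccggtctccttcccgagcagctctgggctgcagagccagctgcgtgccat
EPHA7, chr6:93419560-93419809, minus strand: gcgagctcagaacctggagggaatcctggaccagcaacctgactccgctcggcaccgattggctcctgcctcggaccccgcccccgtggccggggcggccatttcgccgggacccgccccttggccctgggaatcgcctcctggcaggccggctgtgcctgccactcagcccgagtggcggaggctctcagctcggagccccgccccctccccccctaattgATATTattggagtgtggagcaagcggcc
EPHA6, chr3:96814344-96814580, plus strand: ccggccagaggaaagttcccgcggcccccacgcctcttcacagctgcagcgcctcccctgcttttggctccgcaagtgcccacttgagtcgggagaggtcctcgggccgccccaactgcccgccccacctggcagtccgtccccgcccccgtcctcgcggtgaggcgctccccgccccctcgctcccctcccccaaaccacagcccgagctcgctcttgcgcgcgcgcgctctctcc
EPHA5, chr4:65670496-65670739, minus strand: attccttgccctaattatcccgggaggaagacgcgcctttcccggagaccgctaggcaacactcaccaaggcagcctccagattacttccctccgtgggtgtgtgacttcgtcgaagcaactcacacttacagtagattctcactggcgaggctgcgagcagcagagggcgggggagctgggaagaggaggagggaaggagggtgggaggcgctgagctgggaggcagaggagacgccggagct
ATATT occurred once in the 250 bases before the first EPHA7 start and not in the first windows of EPHA3, EPHA6 or EPHA5, while the window of a further EPHA6 start held 1. Over the first RefSeq window of 20 matched Eph and ephrin genes, 2 held it (EPHA4 and EPHA7), against 21.4% of all 35116 RefSeq windows of 250 bases. TATAAA, searched the same way, was in 1 of the 20 windows (EFNB2) and in 10.7% of all. The full 250 bases had a GC content of 61.2% for EPHA3 and EPHA5, 69.6% for EPHA7 and 72.4% for EPHA6, beside a median of 58% over all windows. EPHA7, EPHA6 and EPHA5 have further annotated starts, and the FPKM per gene does not say which was used.

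EPHA3, a class A receptor with high affinity for ephrin-A5, spans chr3:89107524-89482134 (375 kb, GRCh38, GENCODE 29). The empty vector library gave 7.34 FPKM, the SALL4A library 0.0313 FPKM, and the SALL4B library lists it at 0. The untreated SNU-398 library gave 10.8 FPKM and the knockdown library 45.1 FPKM. From depth and transcript length, these levels stand for about 507, 4.3, 0, 1348 and 1874 fragments in that order. The level with SALL4A was 0.426% of that with empty vector, and the level after knockdown was 4.16 times the untreated one. On the scale of log2 of (FPKM + 1), which understates changes of low genes, the ratios were -3.02 for SALL4A, -3.06 for SALL4B and 1.96 for knockdown. EPHA3 ranked 20 from the lowest of 12441 symbols with SALL4A, 80 from the lowest of 12459 with SALL4B and 258 from the highest of 13716 after knockdown. Both SNU-387 ratios share the same empty vector library.

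Of the coding genes near EPHA3 in the tables, 5 are given here. C3orf38, ZNF654 and CGGBP1 lie 0.939 to 0.963 Mb before it, and PROS1 and STX19 lie 4.39 and 4.53 Mb after it. With 1 FPKM added, none of these 5 reached 2-fold with SALL4A, SALL4B or knockdown. Their log2 ratios ran from -0.84 to 0.18, from -0.17 to 0.19 and from -0.22 to 0.75. PROS1, which encodes the anticoagulant protein S, gave the -0.84, from 5.44 FPKM in the empty vector library and 2.60 FPKM in the SALL4A library. Without an added value PROS1 was thus just past 2-fold lower with SALL4A. STX19 stayed under 1 FPKM in all 5 libraries.

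**Figure D1:**
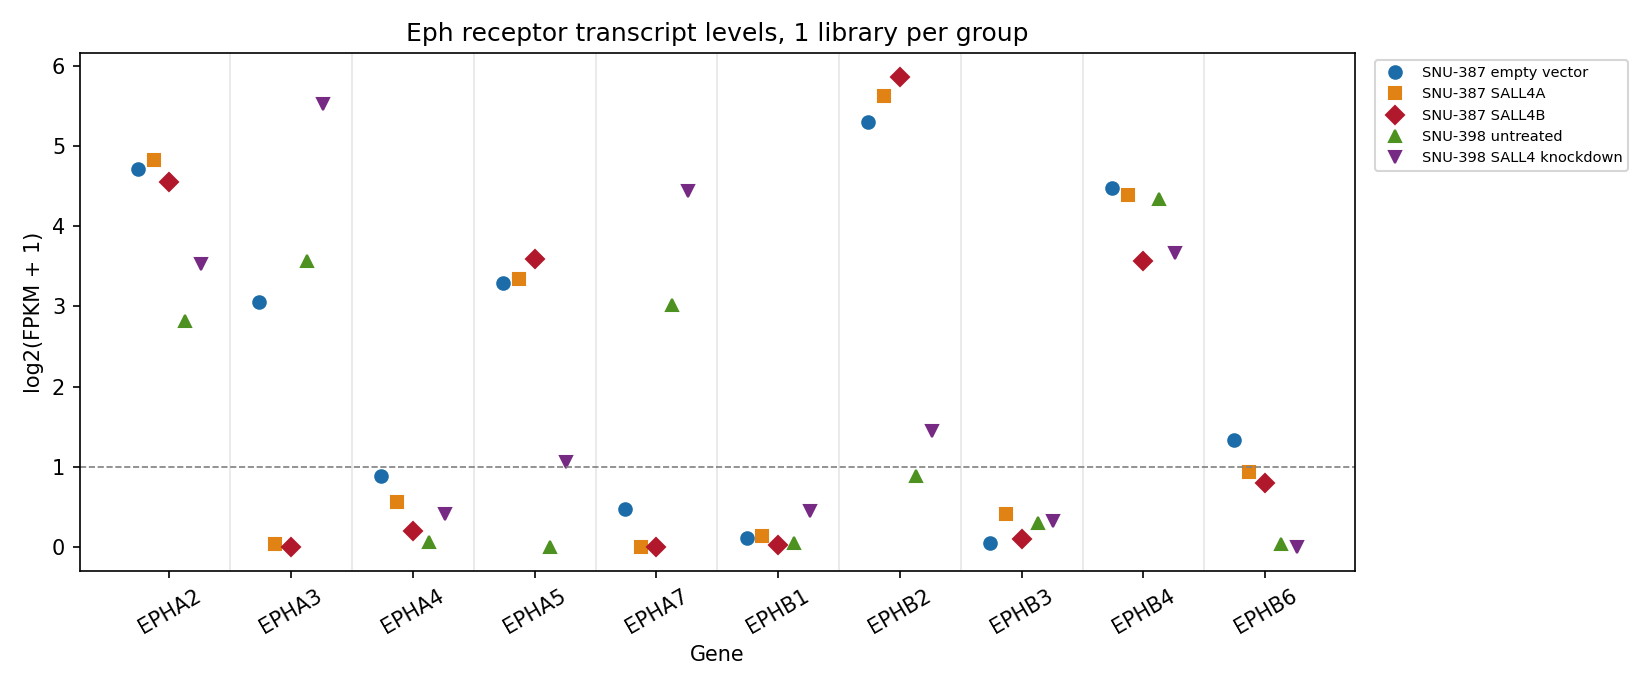
Levels of the 10 Eph receptor genes (log2 of FPKM + 1, vertical axis) by gene, with 1 point for each of the 5 libraries and a dashed line at 1 FPKM. EPHA3 sits near 0 in the SALL4A and SALL4B libraries and highest, at 45.1 FPKM, after knockdown.

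EPHA7, a receptor of developing brain and spinal cord, had the same order of levels as EPHA3 within each line but at lower values in SNU-387. The empty vector library gave 0.395 FPKM and the SALL4A library 0.00611 FPKM, and EPHA7 is listed at 0 in the SALL4B library. These stand for about 31, 0.9 and 0 fragments. Its log2 ratios were only -0.47 and -0.48 because 1 FPKM is added to such low values, and they were -2.22 and -2.31 with 0.1 FPKM added. The SNU-398 libraries gave 7.08 FPKM untreated and 20.6 FPKM with knockdown, 2.91 times as much (log2 ratio 1.42). EPHA7 lies at chr6:93240020-93419547 on another chromosome than EPHA3. With 1 FPKM added, none of its 6 nearest coding genes in the tables reached 2-fold in these comparisons, but neither did EPHA7 with the isoforms. Among these neighbours FUT9 had 0.197, 0.00314 and 0.0166 FPKM for empty vector, SALL4A and SALL4B. GJA10 had 0.0584 FPKM in untreated and 0.348 FPKM in knockdown SNU-398. A smaller added value was not tried for the neighbours.

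EPHA6, a class A receptor outside the 10 chosen genes, was the second receptor of SNU-398. Its levels there were 11.4 FPKM untreated and 25.3 FPKM with knockdown (log2 ratio 1.08), while the empty vector, SALL4A and SALL4B libraries gave 0.0262, 0 and 0.0297 FPKM. EPHA3, EPHA6 and EPHA7 were therefore the receptors highest in the knockdown library, in that order.

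EPHA4, which binds ephrins of both classes, stayed under 1 FPKM throughout. The empty vector, SALL4A and SALL4B libraries gave 0.855, 0.4796 and 0.152 FPKM, and the untreated and knockdown libraries 0.0492 and 0.334 FPKM. The order was again lower with both isoforms and higher after knockdown, but the SNU-398 values stand for only about 6.7 and 15.2 fragments and no ratio reached 2-fold with 1 FPKM added. With 0.1 FPKM added the log2 ratios of EPHA4 were -0.72 with SALL4A, -1.92 with SALL4B and 1.54 after knockdown. EPHA2, an epithelial receptor often abundant in carcinomas, had similar levels in the SNU-387 libraries, 25.2, 27.4 and 22.4 FPKM for empty vector, SALL4A and SALL4B. The SNU-398 levels were 6.07 FPKM untreated and 10.5 FPKM with knockdown, a log2 ratio of 0.70.

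EPHA5, a receptor of the nervous system, had similar levels in the 3 SNU-387 libraries. They were 8.83, 9.16 and 11.1 FPKM for empty vector, SALL4A and SALL4B, with log2 ratios of 0.05 and 0.29. Untreated SNU-398 gave 0.0053 FPKM, about 1 fragment, and the knockdown library 1.08 FPKM, about 65 fragments (log2 ratio 1.05). Its antisense neighbour EPHA5-AS1 overlaps it by 535 bases at the 5′ end (chr4:65669961-65698029, plus strand, against chr4:65319563-65670495 on the minus strand). EPHA5-AS1 had 8.03, 9.43 and 13.7 FPKM in SNU-387 in the same order, was listed at 0 in untreated SNU-398 and had 2.13 FPKM in the knockdown library. The sources used here do not say how the authors' counting treated strand, so reads in the overlap cannot be assigned to either gene.

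Other transcripts of SNU-387 were also detected in the knockdown library. In a check chosen after the values were seen, 22 symbols at 50 FPKM or more in all 3 SNU-387 libraries and under 0.1 FPKM in untreated SNU-398 had a median of 0.912% of their mean SNU-387 level after knockdown, with a highest value of 3.02%. EPHA5 after knockdown was at 11.2% of its SNU-387 mean and EPHA5-AS1 at 20.5%, both above that highest value, and EPHB2 was at 3.61%, against 1.79% in untreated cells. The part of such transcripts in the EPHA5, EPHA5-AS1 and EPHB2 values was not tested.

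None of the class B receptors reached 2-fold in the isoform or knockdown comparisons with 1 FPKM added, and EPHB4 did so after knockdown with libraries scaled to a common total (log2 ratio -1.31). With 0.1 FPKM added, the low EPHB3 reached 1.64 with SALL4A and 1.28 for SALL4A over SALL4B, and EPHB1 reached 1.77 after knockdown. EPHB2, a receptor known for cell sorting in intestinal crypts, was the highest receptor of SNU-387, with 38.5, 48.04 and 57.2 FPKM for empty vector, SALL4A and SALL4B (log2 ratios 0.31 and 0.56). The SNU-398 levels were 0.858 FPKM untreated and 1.73 FPKM with knockdown, 2.02 times as much without an added value. EPHB4, the venous partner of ephrin-B2, had 21.1, 19.99 and 10.8 FPKM for empty vector, SALL4A and SALL4B, and 19.2 and 11.6 FPKM for untreated and knockdown SNU-398. Its log2 ratio was -0.90 with SALL4B and -0.68 with knockdown, so the lowest levels of EPHB4 were in the SALL4B and knockdown libraries, and neither ratio reached 2-fold.

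EPHB6, a receptor without kinase activity, had 1.53, 0.919 and 0.736 FPKM for empty vector, SALL4A and SALL4B, 0.028 FPKM in untreated SNU-398 and 0 in the knockdown library. Its level with SALL4B was 48.05% of that with empty vector. EPHB1 and EPHB3 stayed under 1 FPKM in all 5 libraries. EPHB1 ranged from 0.0232 FPKM with SALL4B to 0.372 FPKM after knockdown. EPHB3 ranged from 0.0383 FPKM with empty vector to 0.331 FPKM with SALL4A. Of the rest of the family, EPHA1 reached at most 0.169 FPKM. EPHA8 was listed at 0 in SNU-387 and had 0.536 and 0.0267 FPKM in untreated and knockdown SNU-398. EPHA10, a receptor without kinase activity, had 1.49 and 1.19 FPKM there, and at most 0.136 FPKM in SNU-387.

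Genes were counted where the log2 ratio reached 2-fold among symbols that reached 1 FPKM in at least 1 library of the pair. With SALL4A, 1 of the 10 receptors was lower (EPHA3), against 3.24% of 12441 symbols, and 0 were higher, against 2.27%. With SALL4B, 1 was lower (EPHA3), against 4.86% of 12459 symbols, and 0 were higher, against 3.13%. Because EPHA3 was chosen for these ratios, nothing is read from those counts. In both comparisons 6 receptors passed the filter of 1 FPKM. The median log2 ratio over all 10 was -0.03 with SALL4A and -0.32 with SALL4B, beside 0 over all symbols in each. Over only the symbols that passed, the median was 0.01 and 0.03. Between the isoforms no receptor reached 2-fold, against 3.82% of 12424 symbols higher and 3.39% lower with SALL4A. EPHB4 differed most, at 0.83 higher with SALL4A.

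After knockdown 3 of the 10 receptors were higher, EPHA3, EPHA5 and EPHA7, against 9.73% of 13716 symbols, and 0 were lower, against 8.13%. The direction of EPHA3 was part of its choice, and EPHA5 passed the filter only through the knockdown library. Nothing is therefore read from this count. The median log2 ratio over all 10 was 0.48, beside 0 over all symbols. Of the 10, 6 passed the filter, and the median over all symbols that passed was -0.01. The small RNA share and the depth differed between these libraries as given above. Scaling both to a common total of FPKM, which includes small RNAs, set the median symbol at -0.62 and EPHA3 at 1.33, EPHA7 at 0.81, EPHA5 at 0.93 and EPHA6 at 0.45, all above that median, while EPHB4 was at -1.31. Without small RNAs in the total, EPHA3 was at 1.997, EPHA7 at 1.46, EPHA5 at 1.17, EPHA6 at 1.12 and EPHB4 at -0.66. In bulk RNA, more transcript per cell and more cells with the transcript cannot be told apart.

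**Figure D2:**
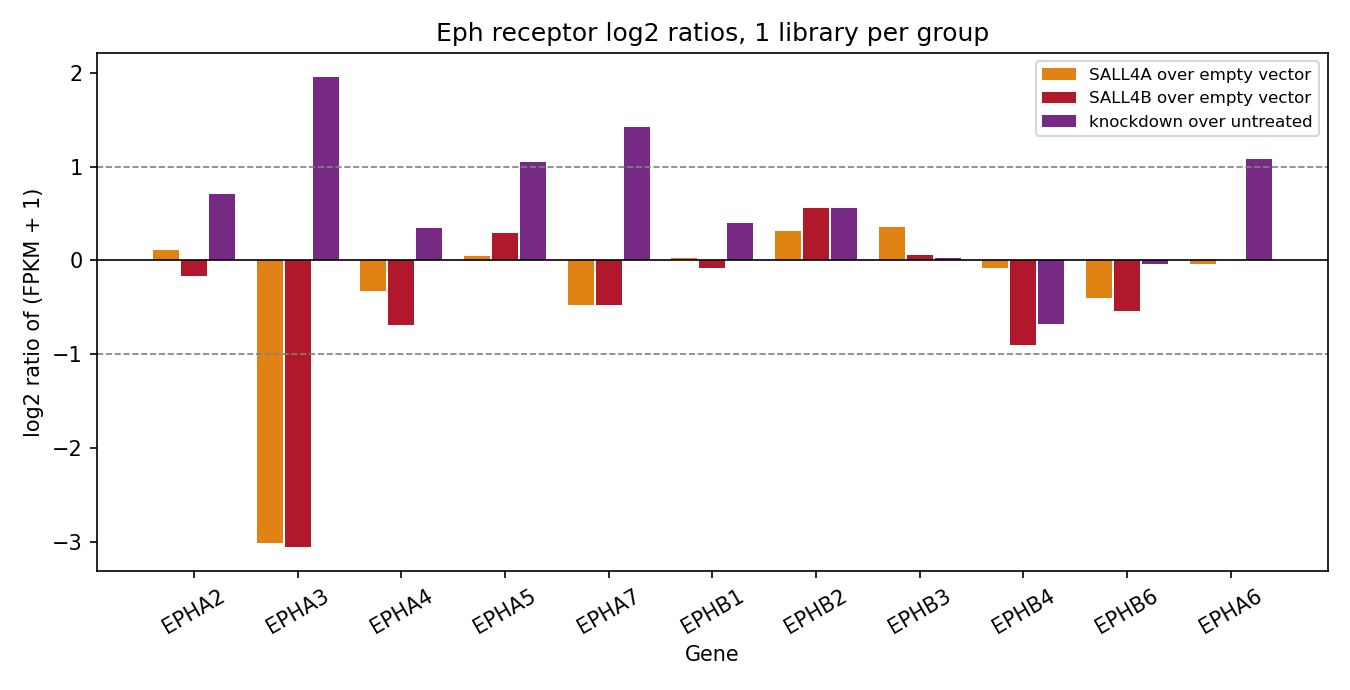
Log2 ratios of (FPKM + 1) for the 10 receptors and EPHA6, with a bar for SALL4A over empty vector, SALL4B over empty vector and knockdown over untreated, and dashed lines at 2-fold. Of the 10, only EPHA3 passes 2-fold with the isoforms (-3.02 and -3.06), and EPHA3, EPHA5 and EPHA7 pass it after knockdown, with EPHA6 beside them at 1.08.

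The makeup of receptor transcript differed by line and after knockdown. Summed over the 14 Eph receptor genes, FPKM was 104 with empty vector, 107 with SALL4A and 103 with SALL4B, and 57.9 in untreated SNU-398 against 118 after knockdown. Class A receptors held 41.2%, 34.9% and 32.8% of the sum in SNU-387, and 64.8% in untreated SNU-398 against 88.2% after knockdown. The class A sum was 37.5 FPKM untreated and 104 after knockdown, while the class B sum was 20.4 and 14.002 FPKM. These are sums of FPKM as deposited. Over all symbols FPKM totalled 330655 untreated and 525524 after knockdown, of which small RNAs held 1.71% and 39.2%. EPHA3 alone held 7.04% of receptor FPKM with empty vector, 0.0294% with SALL4A, 18.7% in untreated SNU-398 and 38.2% after knockdown. With both isoforms the sum stayed close to that with empty vector while EPHB2 took a larger part of it.

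**Figure D3:**
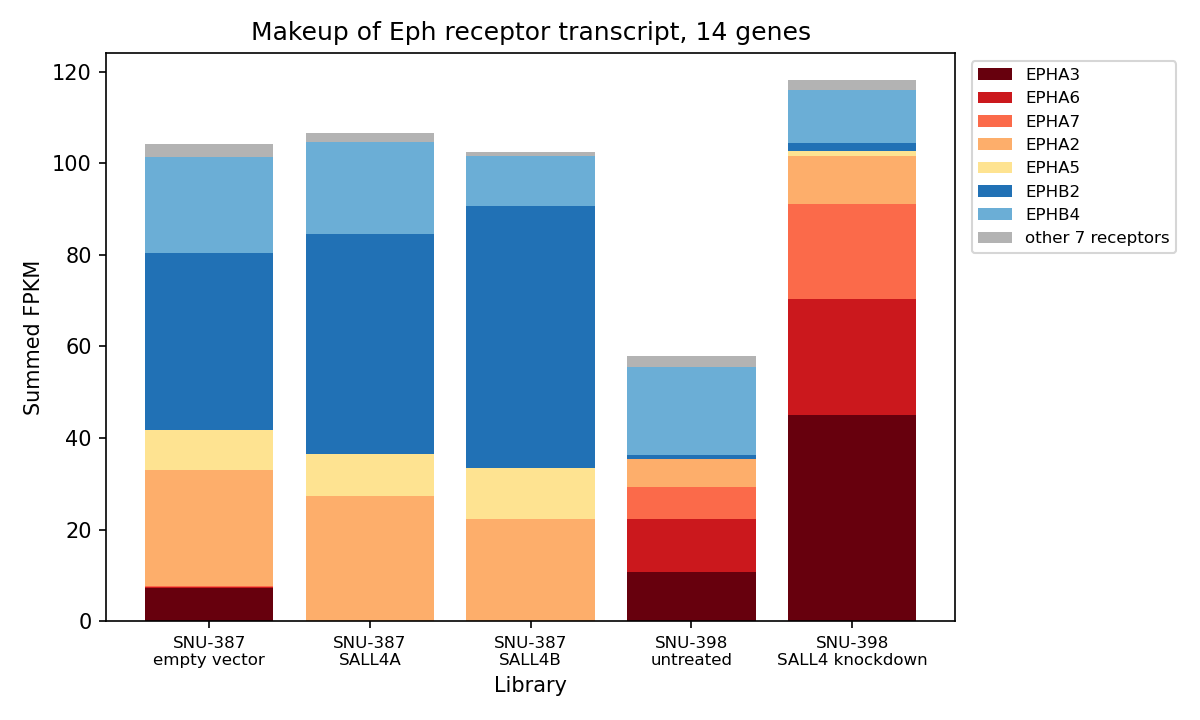
Summed FPKM of the 14 Eph receptor genes in each library, stacked by gene (vertical axis from 0). SNU-387 libraries are mostly EPHB2, EPHA2 and EPHB4, and the knockdown library of SNU-398 is mostly EPHA3, EPHA6 and EPHA7.

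Untreated SNU-398 and empty vector SNU-387 cells differed in the transcript levels of several receptors. The sources used here do not say whether libraries were normalised together, and the median symbol lay at 0.07 as deposited and at 0.51 with a common total, so the levels are set side by side. EPHA3 was close in both lines, at 10.8 and 7.34 FPKM, and EPHB4 at 19.2 and 21.1 FPKM. EPHA7 was at least 2-fold higher in SNU-398, 1 of the 10 receptors against 23.7% of 13996 symbols. Of the 4 receptors outside the 10, EPHA6 (log2 ratio 3.60) and EPHA10 (1.13) were also at least 2-fold higher there. EPHB2 (log2 ratio -4.41), EPHA5 (-3.29), EPHA2 (-1.89) and EPHB6 (-1.30) were at least 2-fold lower, 4 of the 10 against 21.4%. Of the 10 receptors, 7 passed the filter in this pair, and the shares are over symbols that passed it.

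Ephrin ligands were dominated by EFNB2, which encodes ephrin-B2, the ligand of EPHB4. The empty vector, SALL4A and SALL4B libraries gave 59.2, 61.2 and 37.96 FPKM, and untreated and knockdown SNU-398 gave 83.1 and 80.7 FPKM. EFNB2 made up 58.4% to 80.1% of the summed FPKM of the 8 ligand genes. EFNB1, another transmembrane ligand, had 17.2, 8.72 and 3.60 FPKM for empty vector, SALL4A and SALL4B, log2 ratios of -0.91 and -1.99. Only the SALL4B ratio passed 2-fold. EFNB1 had 1.75 and 0.936 FPKM in untreated and knockdown SNU-398. EFNB3 had 4.04 and 1.897 FPKM there (log2 ratio -0.80), and at most 0.076 FPKM in SNU-387.

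With 1 FPKM added, the ephrin-A genes stayed within 2-fold in the isoform and knockdown comparisons. EFNA5, the ligand that EPHA3 binds tightly, had 9.54, 11.99 and 13.5 FPKM for empty vector, SALL4A and SALL4B, and 1.84 and 2.32 FPKM for untreated and knockdown SNU-398. Its level was thus higher in the SALL4A and SALL4B libraries, where EPHA3 was almost absent, with log2 ratios of 0.30 and 0.46. EFNA1 had 4.32, 4.22 and 1.70 FPKM in SNU-387, a log2 ratio of -0.98 with SALL4B, and 3.17 and 4.02 FPKM in SNU-398. That ratio passed 2-fold with a common total (-1.03), with 0.5 FPKM added (-1.13) and with 0.1 FPKM added (-1.29). EFNA4 ranged from 3.63 to 6.21 FPKM over all 5 libraries. EFNA3 had 1.04, 0.483 and 1.93 FPKM in SNU-387 and 5.68 and 4.90 FPKM in SNU-398, and EFNA2 stayed under 1 FPKM. The log2 ratio of EFNA3 for SALL4A over SALL4B was -0.98, and it was -1.31 with 0.5 FPKM added and -1.80 with 0.1 FPKM added.

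Of the 8 ligands, 0 reached 2-fold with SALL4A, against 2.27% of all symbols that passed higher and 3.24% lower. With SALL4B 1 was lower (EFNB1), against 4.86%, and 0 were higher, against 3.13%. After knockdown 0 reached 2-fold, against 9.73% higher and 8.13% lower. The count lower with SALL4B was 2 with a common total or a smaller added value, through EFNA1. The share of all symbols was then 5.36% to 6.89%. The count lower after knockdown was 1, EFNB3, with a common total (-1.30) or with 0.1 FPKM added (-1.05). Of all symbols, 29.1% and 11.4% were then lower, so nothing is read from this count. The medians over all 8 ligands were -0.06 with SALL4A, 0.004 with SALL4B and -0.05 after knockdown. Between isoforms 1 ligand was higher with SALL4A, EFNB1 (log2 ratio 1.08), against 3.82% of symbols, and 0 were lower, against 3.39%. The count higher was 2 with a smaller added value or a common total, with or without small RNAs, through EFNA1. From 552 to 739 of all symbols were then higher. With 0.5 or 0.1 FPKM added 1 ligand was lower, EFNA3, against 4.55% or 5.72% of symbols. Nothing is read from these counts between isoforms. The ephrin-B sum was 76.5 FPKM with empty vector, 69.9 with SALL4A and 41.6 with SALL4B, while the ephrin-A sum was 19.7, 20.3 and 23.4 FPKM.

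**Figure D4:**
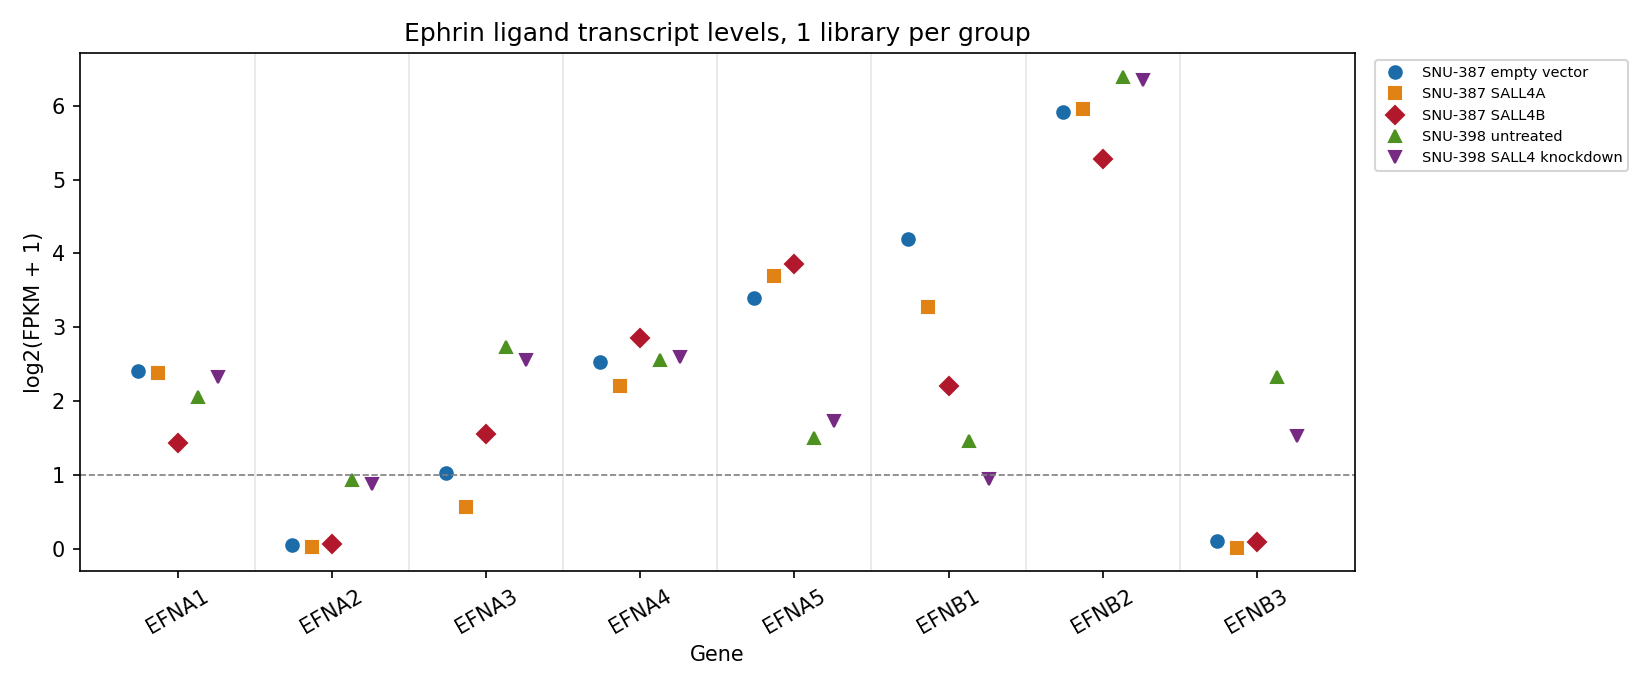
Levels of the 8 ephrin genes (log2 of FPKM + 1, vertical axis), with 1 point for each library and a dashed line at 1 FPKM. EFNB2 is highest in all 5 libraries, and EFNB1 steps down from 17.2 FPKM with empty vector to 3.60 FPKM with SALL4B.

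A list of 49 adaptors, exchange factors, kinases and proteases of Eph signalling stayed mostly within 2-fold with the isoforms, as did most symbols. With SALL4A, 0 of the 49 reached 2-fold, against 2.27% of all symbols that passed higher and 3.24% lower. The median of the 44 that passed the filter was 0.11. With SALL4B, 1 of 49 was lower, against 4.86% of symbols, and 0 were higher, against 3.13%. The lower gene was the Rac exchange factor TIAM1, with 2.87, 1.51 and 0.149 FPKM for empty vector, SALL4A and SALL4B (log2 ratio -1.75). The median was 0.06. VAV3, an exchange factor that binds activated Eph receptors, had 1.06, 0.0943 and 0.0709 FPKM in that order, log2 ratios of -0.91 and -0.94. Between isoforms 1 of 49 was higher with SALL4A, TIAM1 (1.13), against 3.82% of symbols, and 0 were lower, against 3.39%. With 0.1 or 0.5 FPKM added, 1 gene was higher with SALL4A, against 516 or 376 of 12441 symbols. In the same settings 1 was lower with SALL4A, against 648 or 525 symbols. With SALL4B 2 were then lower, against 858 or 743 of 12459 symbols. Nothing is read from these counts.

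After knockdown 1 of 49 signalling genes was higher and 4 were lower. Of the list, 40 passed the filter, and these counts stand beside 9.73% higher and 8.13% lower over all symbols, so nothing is read from the number lower. ABL2, a tyrosine kinase of the cytoskeleton, had 22.8 FPKM untreated and 64.02 FPKM with knockdown (log2 ratio 1.45). The adaptor GRB10 had 12.5 and 3.10 FPKM (-1.72), and the exchange factor VAV2 had 10.4 and 3.84 FPKM (-1.23). ARHGAP35, a GTPase-activating protein, was at 39.2 and 18.3 FPKM (-1.06). The kinase SRC, the last of the 4, was at 10.6 and 4.61 FPKM (-1.04). NCK2, an adaptor of both receptors and ephrin-B ligands, was at 17.2 and 8.37 FPKM (-0.96), just inside 2-fold. With a common total the counts were 0 higher and 15 lower, but 29.1% of all symbols were then at least 2-fold lower.

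The 5 symbols whose profile over the 5 libraries lay nearest to that of EPHA3 were SEMA3A, FAP, LOC646214, DUSP6 and NR2F1. The distance was the root mean square difference of log2(FPKM + 1) after centring each gene on its mean, over 11760 symbols at 5 FPKM or more in a library, and it ran from 0.67 to 0.83 for these 5. SEMA3A, a secreted guidance cue, was at 9.94, 3.36, 2.19, 43.1 and 76.1 FPKM in the empty vector, SALL4A, SALL4B, untreated and knockdown libraries. FAP, a surface protease, was at 39.3, 4.09, 1.56, 25.6 and 61.2 FPKM in the same order. Both were lower with the isoforms, and of them only FAP passed 2-fold after knockdown.

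DUSP6, a phosphatase induced by and acting on ERK, was at 14.5, 7.30, 1.71, 69.97 and 104.8 FPKM. NR2F1, an orphan nuclear receptor, was at 7.73, 2.18, 1.09, 33.2 and 32.2 FPKM, level between untreated and knockdown cells (log2 ratio -0.04). EPHA7 stood at a distance of 0.95 from EPHA3 and EPHA6 at 1.18, with the other receptors at 1.70 or more. The 5 symbols were picked by these same values, so their likeness to EPHA3 is a description of the choice. The profiles mix the difference between lines with the responses to SALL4, and 5 libraries give a description only.

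**Figure D5:**
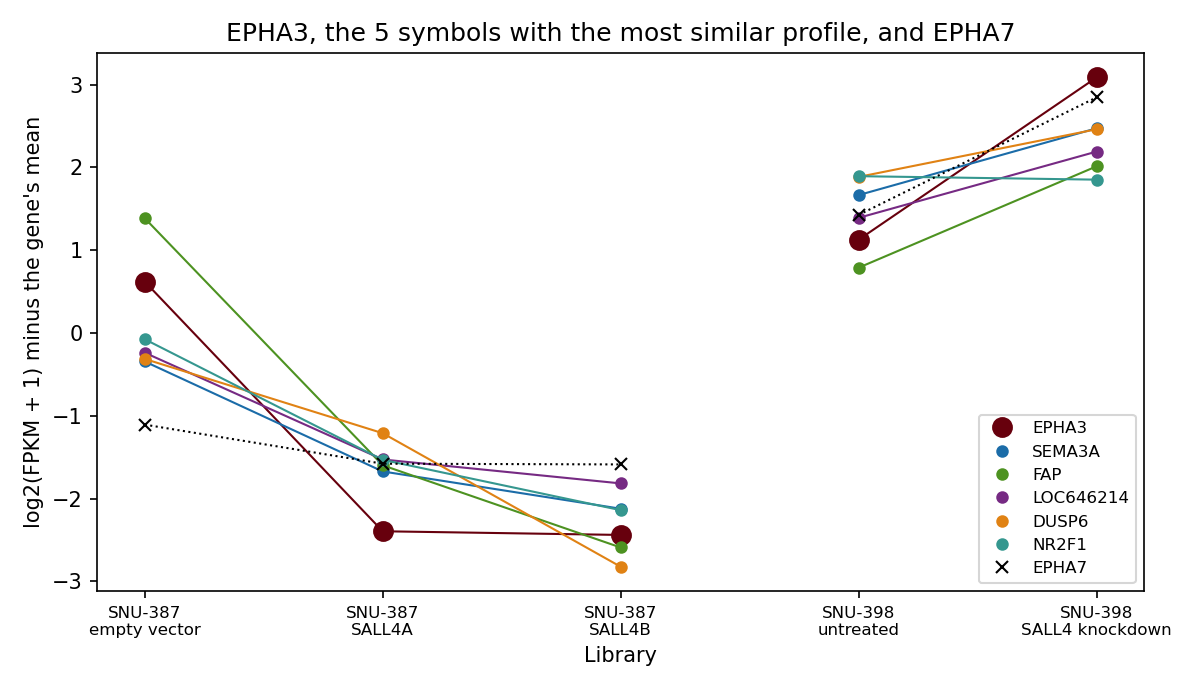
Profiles of EPHA3, its 5 nearest symbols and EPHA7 over the 5 libraries, as log2(FPKM + 1) minus each gene's mean (vertical axis), with lines joining libraries of the same line. EPHA3 and its 5 neighbours, which were picked by likeness over these libraries, are lower with SALL4A and SALL4B than with empty vector. NR2F1 is the gene that is level between untreated and knockdown cells.

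EPHA3 was 1 of 24 symbols at least 2-fold lower with both isoforms and at least 2-fold higher after knockdown, the pattern by which it was picked. Of the 234 symbols lower with both isoforms, 100 reached 1 FPKM in either SNU-398 library. The opposite pattern was met by 6 symbols. The isoform ratios share a control library, so these are counts of the rule and no more.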

How the data were processed

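RNA-seq of total RNA depleted of ribosomal RNA was deposited as FPKM per gene for 5 libraries. The authors made these FPKM values with TopHat2, SAMtools, Cufflinks and Cuffdiff on GRCh38/hg38, per the submitters' processing notes. Versions, annotation, strand use and joint normalisation are not stated there. Each table held 26032 rows, of which 17 with a dash for a name were dropped, and summing rows of the same symbol left 24544 symbols. No member shared its symbol with another row.

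Ratios are log2 of (FPKM + 1) over (FPKM + 1), for symbols that reached 1 FPKM in at least 1 library of the pair, and counts are at 2-fold. Fragment numbers are estimates: depth came from the steps between low FPKM values of 1896 genes with 1 transcript in GENCODE 29, and length was the longest coding transcript. They carry no interval. With 1 library per group there was no test. Members and lists were chosen with earlier results of these data known. Named were all members, the rest of the family, the 8 ligands, signalling genes past 2-fold (at most 3 each way per comparison) and the 5 profiles nearest to EPHA3. SRC, NCK2 and VAV3 were named after their values were seen, as were the neighbours and markers. One gene near EPHA3 is not reported here. The functions were tested on simulated data. Python 3.11.15, numpy 2.4.6, pandas 2.3.3 and matplotlib 3.10.9 were used.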

Additional observations from a re-analysis of the deposited data

Results flagged for a closer look

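EFNA3, the gene of ephrin-A3, lay on opposite sides of the empty vector library with the isoforms, at a log2 ratio of -0.46 with SALL4A and 0.52 with SALL4B, a difference of -0.98. The libraries stand for about 22.1, 20.3 and 30.5 fragments of EFNA3 with empty vector, SALL4A and SALL4B. With 1 library per group the difference was not tested.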

How the results depend on the processing

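No paired analysis was possible because each group held 1 library, and for the same reason no replicate could be left out. EPHA3 kept its direction in the isoform and knockdown comparisons under every alternative run. Its log2 ratio depended on the added value because its levels with SALL4 were near 0: with 0.1 FPKM added it was -5.82 for SALL4A and -6.22 for SALL4B, and with 0.5 FPKM it was -3.88 and -3.97. With a common total EPHA3 was at 1.33 after knockdown. The receptors at least 2-fold higher then numbered 1, against 531 of 13716 symbols, and lower 1, against 3998. The median of the receptors that passed the filter went from 0.88 to 0.19. This scaling moved the share of higher symbols among all past 2-fold from 54.5% to 11.7%. At 1.5-fold, receptors numbered 2 lower with SALL4B, against 1323 of 12459 symbols, and 1 higher with SALL4A over SALL4B, against 1331 of 12424. After knockdown 1 was lower at 1.5-fold, against 2858 of 13716 symbols, and 1 was higher at 3-fold, against 419. Between untreated SNU-398 and empty vector SNU-387 the median of -1.30 over receptors that passed the filter became -2.04 with 0.1 FPKM added, -1.94 with 0.5 FPKM and -0.48 without a filter. The other 155 values for EPHA3 and the receptor list under the alternatives moved by 1.5-fold at most, among them the receptors higher after knockdown, which went from 3 to 2 with a filter of 5 FPKM. Of 270 ratios of the other 9 receptors, 248 moved no more than that, none changed sign past 2-fold, and 19 of the 22 that moved came with a smaller added value. Between isoforms, higher symbols were 53% of those past 2-fold as deposited, 64.4% with a common total and 73% without small RNAs in it.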

Other observations

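EPHA3 and several other receptors are long genes, so long genes were counted after their values were seen. Coding genes spanning 200 kb or more in GENCODE 29 were at least 2-fold lower with SALL4B in 83 of 823 that passed the filter (10.1%), against 4.86% of all symbols, and with SALL4A in 37 of 820 (4.51%), against 3.24%. After knockdown 91 of 889 were higher (10.2%), against 9.73% of all. Of the other receptors of that span, EPHA5 and EPHB2 passed the filter with SALL4B and had log2 ratios of 0.29 and 0.56.

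Markers of neural cells were checked because EPHA5 and EPHA7 are receptors of the nervous system. Their summed level over 6 genes was 88.7, 84.4 and 66.4 FPKM in the empty vector, SALL4A and SALL4B libraries, and 122 and 80.1 FPKM for untreated and knockdown SNU-398. NCAM1 had 2.55, 30.9 and 25.8 FPKM in the empty vector, SALL4A and SALL4B libraries. In SNU-398 it had 4.73 FPKM untreated and 0.879 with knockdown, so both lines showed the reverse of EPHA3 and EPHA7. L1CAM had the order of EPHA3, with 39.4, 7.97 and 0.454 FPKM in the empty vector, SALL4A and SALL4B libraries and 0.547 and 1.16 FPKM for untreated and knockdown SNU-398, so the 6 markers did not move one way. The endothelial markers, 5 genes, summed to 11.2 FPKM with SALL4A and to 2.66 FPKM or less in every other library, with VWF under 0.1 FPKM throughout.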
